A study of Mus musculus with 36 samples.

Results

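Neuronal activity genes were compared between 12 mouse cortex libraries in which they were high and 12 in which they were low. The 24 libraries came from 36 in all, and they were chosen by measured values. For each library a score was computed as the mean log2(TPM + 0.5) of 5 genes, Fos, Arc, Egr1, Npas4 and Junb, where TPM is an abundance of transcripts corrected for gene length and scaled to a fixed library total. Within each of the 4 groups of mice the 3 libraries with the highest score formed the high set and the 3 with the lowest score the low set, and the other 12 libraries were in neither. Every group therefore gave the same number of libraries to each set, so that a difference between groups could not enter the comparison.

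All mice were females of 8 to 11 weeks on a C57BL/6NTac background, and each gave 1 library, from a punch of the anterior cingulate cortex (aCC) on the right side. Of wild type (WT) mice 8 had received saline vehicle and 10 the tricyclic drug imipramine (IMN), at 10 mg/kg, and of Brd1+/- mice 9 had received each of these. Brd1+/- mice carry 1 allele of Brd1, which encodes a scaffold protein of histone acetyltransferase complexes, with a targeted deletion. The brains were collected, by the methods of the study, soon after a forced swim test that followed an open field, in vehicle and IMN mice alike, so that no library represents an undisturbed animal.

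Brd1, the targeted gene, was lower on average in the Brd1+/- groups, although 3 WT IMN libraries (17.9 to 20.1 TPM) lay within the range of the Brd1+/- libraries (13.5 to 20.9 TPM). It had a mean of 26.4 TPM (SD 3.03) in WT vehicle mice and 23.3 TPM (SD 3.43) in WT IMN mice, and of 16.8 TPM for each of the Brd1+/- groups (SD 2.72 with vehicle and 2.102 with IMN). The depth of each library is unknown, since TPM keep no record of it. Errors here come from the spread among libraries of a group, in which differences of mice, punches and counting cannot be told apart. Between 24685 and 25517 genes were above 0 in a library. Excitatory neuron genes summed to between 2764 and 6035 TPM and astrocyte genes to between 1126 and 1526 TPM over the 36 libraries, and every gene of both lists had a median above 0.

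The 5 score genes are immediate-early genes. Synaptic input and calcium entry switch them on within minutes through transcription factors that are already present in the cell, such as CREB and SRF, and their mRNAs decay quickly. Fos and Junb encode subunits of the AP-1 transcription factor, Egr1 a zinc finger factor, Npas4 a factor that answers to calcium entry in neurons, and Arc a protein of the synapse. Their products then switch on later genes, among them secreted factors and synaptic proteins, and other early products shut the signal down again. In frontal cortex such mRNAs serve as a record of recent neuronal activity.

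The score ran from 5.63 to 7.37 over the 36 libraries. Its values lay mostly higher in the vehicle groups than in the IMN groups, and the high libraries of the IMN groups (6.39 to 6.88) overlapped the low libraries of the vehicle groups (6.08 to 6.87). The edges of the sets were narrow. In WT vehicle the last low library was at 6.8691 and its neighbour outside at 6.8730, and in WT IMN these were at 6.2786 and 6.2800. On the high side of WT IMN they were at 6.4532 and 6.4456, and on that of Brd1+/- IMN at 6.3934 and 6.3776, while the high edge of WT vehicle was wider, at 7.2226 and 7.1024. With group as a block the sets differed by 0.6185 in score. Selected on these values, the sets differed in each score gene by construction, and the numbers that follow are a description. Fos lay between 41.3 and 77.4 TPM in the high set with a median of 60.6, and between 32.2 and 58.0 TPM in the low set with a median of 42.6. Npas4 differed most, by 0.83 on the log2 scale, with a median of 31.4 TPM in the high and 19.7 TPM in the low set. The difference was 0.65 for Egr1, 0.57 for Junb and 0.55 for Arc. For all 5 genes the ranges of the sets overlapped over the 4 groups together.

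**Figure D1:**
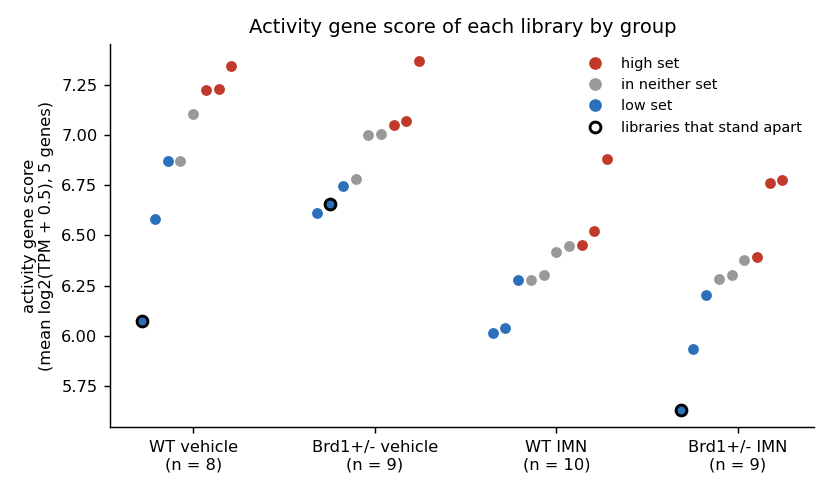
Activity gene score of the 36 libraries (vertical axis, mean log2(TPM + 0.5) of 5 genes) by group, with 1 point a library, coloured by set; the 3 libraries with a black ring stand apart in their cell type markers. The 3 highest and 3 lowest libraries of each group are the sets, and all 3 ringed libraries are in the low set.

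Membership depended little on single score genes. When 1 of the 5 genes was left out of the score, 10 to 12 of the 12 high and 9 to 12 of the 12 low libraries were chosen again, and 0 libraries changed sides. The left-out gene could then be compared in sets that it had not chosen. It was higher in the high set for each of the 5 genes and in all 4 groups by its mean. Fos differed by 0.47 (SE 0.0934), Egr1 by 0.54 (SE 0.133), Npas4 by 0.67 (SE 0.163), Junb by 0.53 (SE 0.166) and Arc by 0.34 (SE 0.158) on the log2 scale. The unadjusted limma p-values were 4.85e-05 for Fos, 0.000507 for Egr1, 0.000496 for Npas4, 0.00439 for Junb and 0.0434 for Arc, and none passed after adjustment over all genes (adjusted p from 0.248 to 0.633). The 5 genes were picked together and the sets stayed largely the same, so these values describe the score and give no independent support.

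Libraries that stood apart have to be named before the results, since 3 of the 12 low libraries were such libraries. WT vehicle replicate 1 had upper cortical layer genes at a sum of 101.8 TPM, the lowest of the 36 against a median of 390.3 TPM in the others, and myelin genes at 2887 TPM, the third highest. Brd1+/- IMN replicate 6 was similar, with 121.0 TPM for the upper layer genes and 3501 TPM for myelin, against a median of 555.1 TPM. Brd1+/- vehicle replicate 6 differed in another way: genes of striatal neurons summed to 1555 TPM there and to at most 396.8 TPM elsewhere, and choroid plexus genes to 3917 TPM against at most 40.3 TPM elsewhere. The counts of calls and the genes that led them are therefore given with and without these 3 libraries. WT IMN replicate 7, also in the low set, had the highest myelin sum of the 36, at 3630 TPM. Its deep layer genes, at 548.2 TPM, were the highest as well. It was not counted among the libraries that stand apart and stayed in the fits without them.

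Promoter sequences are shown for activity genes that rose with the score over all libraries, of which Nr4a1 alone also passed without the 3 libraries that stand apart, and for Fos, because the score genes and their relatives are known targets of CREB, which binds the cyclic AMP response element. The element in full reads TGACGTCA and its core TGACG, or CGTCA on the other strand. The windows run from 250 bases before to 50 bases after a start site in RefSeq (build GRCm38.p6), 5′ to 3′ on the strand of the gene, and capitals mark the core of the element and the TATA box TATAAA. Fos is shown as a score gene, Nr4a1, Egr4 and Fosb as the inducible factors with the smallest p-values among those that hold the core, and Pcsk1, Plk2 and Btg2 as the listed genes with the full element that also rose with the score. The core was searched, and these genes were chosen, after the values had been seen.
Fos, chr12:85473640-85473939, plus strand: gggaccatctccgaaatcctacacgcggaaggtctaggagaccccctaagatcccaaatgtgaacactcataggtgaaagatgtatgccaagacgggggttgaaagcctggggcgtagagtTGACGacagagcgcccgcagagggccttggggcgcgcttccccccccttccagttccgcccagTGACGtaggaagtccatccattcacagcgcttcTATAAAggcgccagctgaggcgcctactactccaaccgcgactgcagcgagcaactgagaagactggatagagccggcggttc
Nr4a1, chr15:101266596-101266895, plus strand: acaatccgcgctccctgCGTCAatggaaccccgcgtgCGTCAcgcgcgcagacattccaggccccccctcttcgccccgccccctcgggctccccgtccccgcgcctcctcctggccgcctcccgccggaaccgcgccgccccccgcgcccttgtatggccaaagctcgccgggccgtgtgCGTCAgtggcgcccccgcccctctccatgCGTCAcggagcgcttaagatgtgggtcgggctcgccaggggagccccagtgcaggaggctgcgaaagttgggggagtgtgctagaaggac
Egr4, chr6:85513540-85513839, minus strand: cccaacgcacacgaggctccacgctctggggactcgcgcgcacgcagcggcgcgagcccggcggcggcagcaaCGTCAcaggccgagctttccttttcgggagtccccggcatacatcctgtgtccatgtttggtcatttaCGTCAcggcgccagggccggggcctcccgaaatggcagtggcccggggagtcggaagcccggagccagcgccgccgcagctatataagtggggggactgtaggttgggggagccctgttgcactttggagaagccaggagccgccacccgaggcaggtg
Fosb, chr7:19309996-19310295, minus strand: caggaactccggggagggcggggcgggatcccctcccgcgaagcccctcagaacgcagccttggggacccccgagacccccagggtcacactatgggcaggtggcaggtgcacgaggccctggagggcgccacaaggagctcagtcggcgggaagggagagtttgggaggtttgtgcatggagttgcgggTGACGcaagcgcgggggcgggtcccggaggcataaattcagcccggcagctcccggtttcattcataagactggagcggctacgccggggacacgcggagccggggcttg
Pcsk1, chr13:75089607-75089906, plus strand: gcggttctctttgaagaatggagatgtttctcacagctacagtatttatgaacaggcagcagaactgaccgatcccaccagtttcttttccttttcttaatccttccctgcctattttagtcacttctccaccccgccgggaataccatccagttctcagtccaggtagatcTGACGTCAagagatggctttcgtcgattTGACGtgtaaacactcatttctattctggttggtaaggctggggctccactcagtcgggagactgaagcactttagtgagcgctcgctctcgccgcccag
Plk2, chr13:110394794-110395093, plus strand: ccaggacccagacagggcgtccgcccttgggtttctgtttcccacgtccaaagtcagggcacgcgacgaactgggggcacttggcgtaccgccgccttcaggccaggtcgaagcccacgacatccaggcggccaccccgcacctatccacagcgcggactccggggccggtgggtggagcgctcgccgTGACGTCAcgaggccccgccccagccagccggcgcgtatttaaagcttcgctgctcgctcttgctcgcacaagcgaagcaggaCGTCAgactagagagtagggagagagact
Btg2, chr1:134079106-134079405, minus strand: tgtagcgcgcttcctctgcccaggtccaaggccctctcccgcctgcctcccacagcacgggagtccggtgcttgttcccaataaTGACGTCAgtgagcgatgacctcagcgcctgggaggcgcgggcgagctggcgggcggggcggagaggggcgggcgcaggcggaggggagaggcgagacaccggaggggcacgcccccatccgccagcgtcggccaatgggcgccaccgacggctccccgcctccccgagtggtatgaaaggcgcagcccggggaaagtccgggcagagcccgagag

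In Fos the core occurred 2 times, 129 and 66 bases before the start site, followed by a TATA box 33 bases before it. Nr4a1 held 4 cores, at 233, 213, 69 and 40 bases before the start site, which lies 12577 bases inside the gene as the deposited table delimits it. The full element was found 78 bases before the start site in Pcsk1, 62 bases in Plk2 and 166 bases in Btg2. Both strands were searched, and a full element counts as 2 cores since it reads the same on either strand. At least 1 core was present in 30 of the 52 listed activity genes with a window (57.7%), against 20.8% of all 32851 windows. Of the 24 among these members that rose with the score over all libraries, 15 held a core (62.5%), a share close to that of all members. At least 4 cores were present in Nr4a1, Nr4a2 and Nr4a3, and in 0.231% of all windows. The full element was in 0 of 19 inducible transcription factors, 4 of 22 feedback genes and 3 of 11 effectors, and in 1.79% of all windows. The members with it that are not shown, Dusp1, Arl4d, Scg2 and Arl5b, did not pass in the fit over all libraries (limma adjusted p from 0.299 to 0.883). The shares of the AP-1 element TGANTCA (0, 0 and 1 of these members, 7.81% of all windows) and of the EGR element GCGTGGGCG (0 members of the 3 lists, 0.612% of all windows) are given for comparison, with the CArG box, which SRF binds, in 1, 2 and 0 members and 1.63% of all windows and the TATA box in 2, 4 and 2 members and 13.6% of all windows. A match is a description of the letters, not evidence of binding.

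The comparison of the sets asked which genes, beyond the 5 that chose the libraries, moved with them. Each of 25567 genes was tested in limma with group as a block. None passed an adjusted p-value of 0.05 (0%), and at an unadjusted p-value under 0.05 there were 1942 genes, 1132 of them higher (4.43% of those tested) and 810 lower (3.17%) in the high set. The smallest p-value belonged to Nr4a1, an orphan nuclear receptor and classical immediate-early gene, followed on the higher side by Stk40, a kinase-like protein, and Sik1, a salt-inducible kinase that restrains CREB-dependent transcription.

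Nr4a1 (chr15:101254269-101274795, plus strand, GRCm38) lay between 124 and 239.3 TPM in the high set with a median of 188.5, and between 89.6 and 179.7 TPM in the low set with a median of 123.9. Within each of the 4 groups all 3 high libraries lay above all 3 low libraries. In WT vehicle these were 202, 220.4 and 239.3 TPM against 89.6, 142 and 179.7 TPM, and in WT IMN 143.5, 160.2 and 186.8 TPM against 95.5, 99.8 and 127.9 TPM. The smallest margin was in Brd1+/- vehicle, where 165.5 TPM in the high set stood beside 162.6 TPM in the low set. The log2 difference was 0.60 (SE 0.0993), 1.52-fold, with an adjusted p-value of 0.104. That value passed the threshold when any of 5 libraries was left out (0.0177 to 0.0462) and with sets of 2 (0.0303) or 4 (0.0362) libraries per group. It was 0.373 without the 3 libraries that stand apart, at a difference of 0.51, and with the myelin and upper layer scores as covariates the difference was 0.49 and did not pass either.

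Sik1 lay between 6.67 and 14.3 TPM in the high set and between 6.63 and 10.1 TPM in the low set, with 10 of 12 high libraries above the highest low library. Its log2 difference was 0.50 (SE 0.1; adjusted p = 0.302). The exceptions were WT IMN replicate 9 at 8.92 TPM and Brd1+/- vehicle replicate 2 at 6.67 TPM, and without the latter the adjusted p-value was 0.0161. Without the 3 libraries that stand apart it was 0.611, at a difference of 0.50. With the myelin and upper layer scores as covariates the difference of Sik1 was 0.46 and did not pass either. Stk40 differed by 0.32 (SE 0.0601; adjusted p = 0.17), with its high and low sets separated in 3 of 4 groups. On the lower side the smallest p-value belonged to Zfp429, a zinc finger gene, at a median of 1.35 TPM in the high and 2.06 TPM in the low set, a log2 difference of -0.45 (SE 0.079; adjusted p = 0.125). All groups were separated for Zfp429, and 11 of 12 high libraries lay below the lowest low library. It was picked by its p-value among all genes tested, so this separation follows in part from the selection. In the libraries in neither set its slope on the score was 0.46 (unadjusted limma p = 0.595), in the other direction. Fitted on the score without the 3 libraries that stand apart, it did not pass (limma adjusted p = 0.388). Next on the lower side were Iah1, an esterase gene (-0.33, SE 0.0766, adjusted p = 0.516), and the microRNA gene Mir129-1 (-0.72, SE 0.17, adjusted p = 0.516), which was listed at 0 in the median high library. Iah1 overlaps Adam17 on the other strand, and Mir129-1 overlaps Gm3294, so that reads could be split between the partners.

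The comparison of the sets leaves out 12 libraries and treats all members of a set alike. When the score was instead fitted as a slope over all 36 libraries, with group as a block and the slope expressed for the 0.6185 that separates the sets, 918 genes passed an adjusted p-value of 0.05 in limma. Of these 622 rose with the score (2.43% of genes tested) and 296 fell with it (1.16%). This fit was one of the alternatives to the comparison of the sets, and the members called below are called in it. The score genes and the tested genes come from the same RNA, so a call says that a gene varies with the score among mice of 1 group, not that a treatment changed it.

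The inducible transcription factors formed a list of 25 genes. In the comparison of the sets 23 were higher in the high set, 15 of them at an unadjusted p-value under 0.05 and none of them lower at that level, with a median log2 difference of 0.34 against 0.001 over all genes tested. On the slope 13 of the 25 rose and 0 fell. They were Nr4a1, Egr2, Egr3, Egr4, Fosb, Fosl2, Klf2, Klf4, Maff, Srf, Bhlhe40, Csrnp1 and Per1. Without WT vehicle replicate 1 the 13 were 5 (Nr4a1, Egr2, Egr4, Fosb and Per1), and without the 3 libraries that stand apart 1, Nr4a1. The list's median difference was positive within each of the 4 groups, from 0.19 in Brd1+/- vehicle to 0.45 in Brd1+/- IMN.

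Egr2, a zinc finger factor of the Egr1 family, had the largest difference of the list. It lay between 15.6 and 42.6 TPM in the high set with a median of 29.4, and between 1.11 and 43.6 TPM in the low set with a median of 11.2. The sets overlapped at the top, since Brd1+/- vehicle replicate 1 in the low set held the highest value, while 6 low libraries were under 10 TPM and no high library was. The slope was 1.56 (SE 0.201; adjusted p = 4.05e-05), 2.95-fold. Its relative Egr4, at 45.2 to 115.4 TPM against 14.2 to 80.9 TPM, had a slope of 0.83 (SE 0.113; adjusted p = 6.48e-05), and Egr3 one of 0.69 (SE 0.175; adjusted p = 0.0232). Fosb, the AP-1 subunit whose products accumulate with repeated stimulation, had a slope of 0.85 (SE 0.138; adjusted p = 0.000747).

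Per1, a clock gene that is also induced by CREB, rose by 0.32 (SE 0.0617; adjusted p = 0.00326), and 5 of 12 high libraries lay above the highest low library. Bhlhe40, a repressor of clock genes, rose by 0.39 (SE 0.0765; adjusted p = 0.00406) and Srf, which encodes the factor that binds the CArG box, by 0.24 (SE 0.0622; adjusted p = 0.0298). Other inducible factors did not pass. Nr4a2, a close relative of Nr4a1 with as many cores in its promoter window, differed by 0.04 between the sets (adjusted p on the slope 0.824). Jun, the usual AP-1 partner of Fos, differed by -0.003 (adjusted p on the slope 0.959). Nr4a3 fell just short, with a difference of 0.46 (adjusted p on the slope 0.0512).

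**Figure D2:**
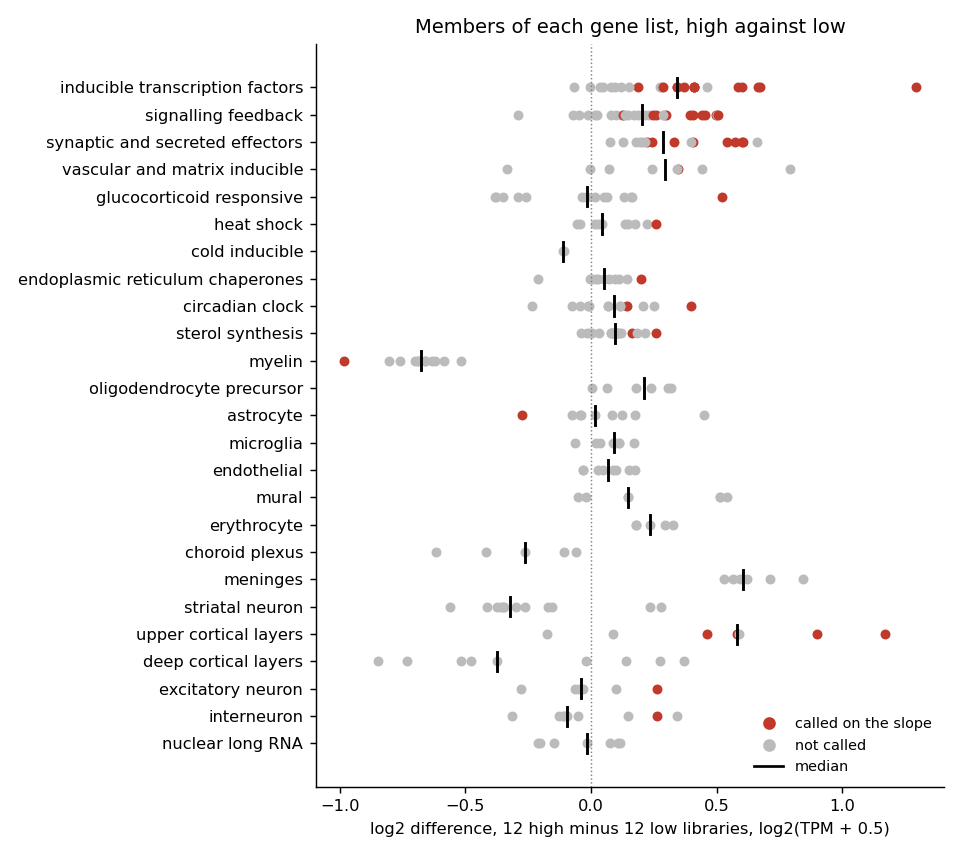
Log2 difference of every tested member of the gene lists between the 12 high and the 12 low libraries (horizontal axis, log2(TPM + 0.5) scale), with 1 point a gene, red where the gene was called on the slope over all 36 libraries at an adjusted p under 0.05, and a bar at the median of the list. The medians of the top 3 lists lie to the right of 0, at 0.34, 0.20 and 0.29, and the myelin list lies wholly to the left with a median of -0.68.

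Feedback genes of intracellular signalling, a list of 28, include phosphatases of MAP kinases, kinases and adaptors that are themselves induced and then damp the signal. Higher in the high set were 24, 11 of them at an unadjusted p-value under 0.05, with a median difference of 0.20. On the slope 10 rose and 0 fell: Dusp6, Sik1, Nab2, Trib1, Gadd45b, Btg2, Plk2, Rasd1, Midn and Tiparp. Without WT vehicle replicate 1 these were 4 (Sik1, Trib1, Midn and Nab2), and without the 3 libraries 2, Sik1 and Trib1. Trib1, a pseudokinase that steers the degradation of transcription factors, lay between 15.2 and 33.1 TPM in the high and between 10.1 and 22.3 TPM in the low set and rose by 0.43 (SE 0.0732; adjusted p = 0.00108). Midn, which promotes the degradation of immediate-early proteins, rose by 0.43 (SE 0.074; adjusted p = 0.00119). It was far higher in WT IMN replicate 6, at 139.7 TPM, than in the other WT IMN libraries, whose highest was 75.3 TPM. Nab2, a corepressor of Egr1, rose by 0.30 (SE 0.0562; adjusted p = 0.00276), and Gadd45b, which takes part in activity-dependent DNA demethylation, by 0.39 (SE 0.0678; adjusted p = 0.00134). Dusp1, the phosphatase that inactivates p38 and JNK, was higher by 0.29 between the sets but did not pass on the slope (0.17, SE 0.0839, adjusted p = 0.299).

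Synaptic and secreted effectors were the only list among the 3 in which every member, 16 of 16, was higher in the high set. An unadjusted p-value under 0.05 was found for 10, and the median difference was 0.29. On the slope 8 rose and 0 fell: Bdnf, Homer1, Nptx2, Vgf, Pcsk1, Ptgs2, Pcdh8 and Adcyap1. Without WT vehicle replicate 1 only Vgf passed, without the 3 libraries 0 did, and with the myelin and upper layer scores as covariates 0 of these 8 passed. Bdnf, the neurotrophin, lay between 15.9 and 32.1 TPM in the high set with a median of 25.5, and between 8.29 and 28.9 TPM in the low set with a median of 15.5. Its sets overlapped, with 4 of 12 high libraries above the highest low one, and its slope was 0.66 (SE 0.114; adjusted p = 0.00133). Vgf, a neuropeptide precursor, rose by 0.49 (SE 0.0824; adjusted p = 0.00107) and Adcyap1, which encodes the peptide PACAP, by 0.69 (SE 0.131; adjusted p = 0.00297). Ptgs2, the inducible cyclooxygenase, rose by 0.83 (SE 0.165; adjusted p = 0.0043). Pcsk1, which cleaves prohormones, rose by 0.26 (SE 0.0608; adjusted p = 0.0133) and Nptx2, which clusters glutamate receptors, by 0.43 (SE 0.0934; adjusted p = 0.00863). Nrn1 had medians of 270.2 TPM in the high and 116.4 TPM in the low set, a difference of 0.66 (SE 0.3). Its slope was 0.27 (SE 0.269, adjusted p = 0.672). In every group and in both sets its libraries lay either at or below 120.8 TPM or at or above 220.2 TPM, with none between. The medians therefore depend on how many libraries of each level fell in a set, and the cause of this split was not tested.

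Taken over the 3 lists, 63 of 69 genes were higher in the high set, 36 of them at an unadjusted p-value under 0.05, a level that 4.43% of all genes reached in that direction. Of the 69, 31 rose on the slope, where 2.43% of all genes did. Of the 69 genes, 10 were called on the slope without WT vehicle replicate 1 and 3 without the 3 libraries that stand apart. With the scores of the myelin and upper layer lists as covariates 7 were called, of which Gpr3 and Dusp1 were not among the 31. Over all 25567 genes tested these fits called 75, 8 and 13. The median difference of the 69 genes between the sets was 0.24 without the 3 libraries, against 0.26 with them. The lists were drawn up from genes known to follow neuronal activity, with earlier results of these data known.

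**Figure D3:**
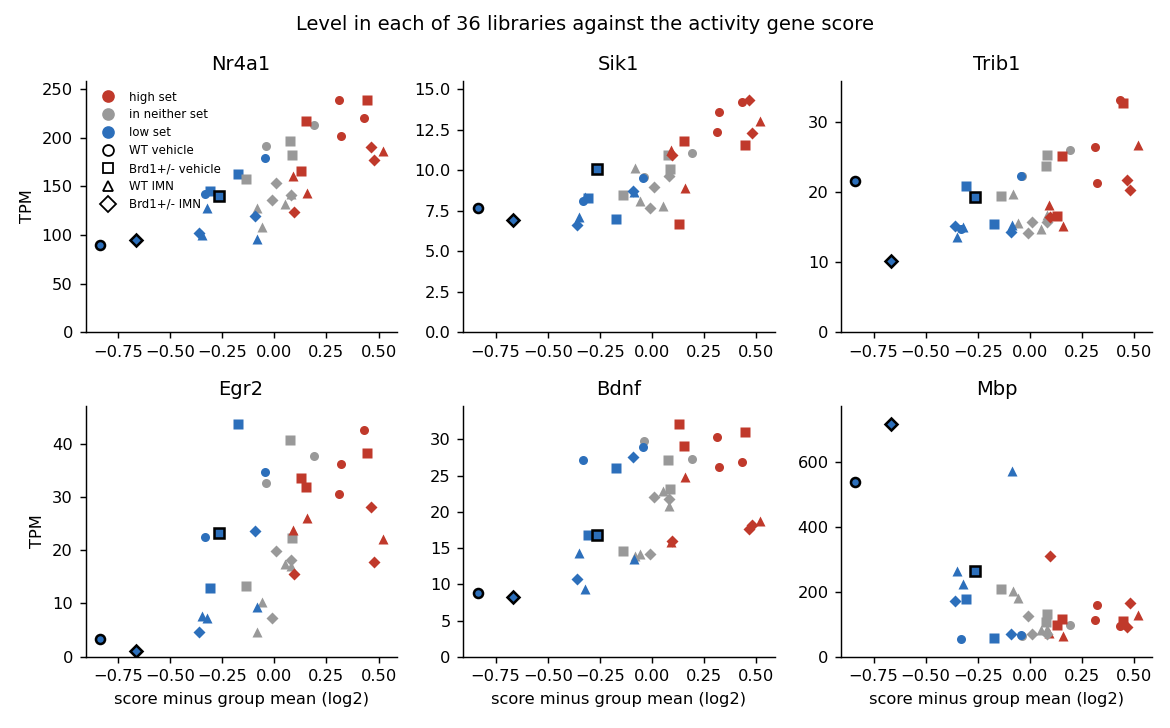
TPM of 6 genes in each of 36 libraries (vertical axes, from 0) against the score of the library minus the mean of its group (horizontal axes, log2), with colour for the set, marker shape for the group and a black ring for the 3 libraries that stand apart. Nr4a1, Sik1 and Trib1 climb along the whole range, Egr2 and Bdnf are lowest in 2 ringed libraries, and the myelin gene Mbp is highest in those 2 and in 1 other low library.

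Genes outside the lists moved as well. Among the 12 genes with the smallest p-values that rose with the score were Dnajb5, Furin, Cdkn1a, Stk40, Irs2, Camk1g, Rasl11a and Spred3, beside the listed Nr4a1, Egr2, Egr4 and Sik1. Dnajb5, a cochaperone, lay between 220.2 and 351.9 TPM in the high and between 167 and 302.9 TPM in the low set (slope 0.31, SE 0.0376, adjusted p = 1.27e-05). Furin, a protease that matures proneurotrophins, rose by 0.38 (SE 0.0504; adjusted p = 6.48e-05), and Irs2, an adaptor of the insulin receptor, by 0.48 (SE 0.0667; adjusted p = 6.57e-05). Cdkn1a, the cell cycle inhibitor p21, which the glucocorticoid list holds, rose by 0.62 (SE 0.0845; adjusted p = 6.48e-05). Camk1g, a calcium/calmodulin-dependent kinase, rose by 0.57 (SE 0.0809; adjusted p = 0.000106), Rasl11a, a small GTPase, by 0.60 (SE 0.0898; adjusted p = 0.000269) and Spred3, an inhibitor of Ras signalling, by 0.32 (SE 0.0481; adjusted p = 0.000269).

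Genes that fell with the score and had the smallest p-values, 11 of which are named here, were low or moderate in level. Among genes with an established name, Mtfr1, a regulator of mitochondrial fission, fell by 0.40 on the log2 scale (SE 0.0641; adjusted p = 0.000659), and 8 of 12 high libraries lay below the lowest low library. Rhobtb3 (adjusted p = 0.00107), Gtf2h3, a subunit of TFIIH (0.00237), and Fundc2, a mitochondrial membrane protein (0.00252), had slopes of -0.45, -0.31 and -0.27. Trhr2, a receptor for thyrotropin-releasing hormone, had a slope of -0.99 (SE 0.192; adjusted p = 0.00347), with 10.3 TPM in WT vehicle replicate 1 against at most 1.33 TPM in the other WT vehicle libraries. The others were Rassf7, Fam234a, Eif5a2, Edil3, Akr1c18 and Mtap. WT vehicle replicate 1 and Brd1+/- IMN replicate 6 each held the highest level of their group for all 11 of these genes, and 0 of the genes that fell with the score passed when the 3 libraries that stand apart were left out.

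Lists of stress, metabolism and vessels are given next. Glucocorticoid-responsive genes had a median of -0.02, with 7 of 15 higher, and only Cdkn1a rose on the slope. Mt1, a metallothionein, was lower in the high set by 0.26 at an unadjusted p of 0.0119 and did not pass (adjusted p = 0.611). Heat shock genes had a median of 0.04, and of 11 only Dnajb1 rose (0.35, SE 0.0717, adjusted p = 0.00549). Chaperones of the endoplasmic reticulum had a median of 0.05 with Hyou1 as the 1 gene of 11 that rose. Clock genes other than Per1 had a median of 0.09, and Per2 (0.49, SE 0.0791, adjusted p = 0.000645) and Cry2 (0.17, SE 0.0495, adjusted p = 0.0458) rose among 14. Sterol synthesis genes were higher in 17 of 20 cases with a median of 0.10, and Fdft1, which encodes squalene synthase, rose by 0.19 (SE 0.0559; adjusted p = 0.0456). The inducible genes of vessels and matrix had a median of 0.29 with 6 of 8 higher, Cyr61 alone rose, and the 2 cold-inducible genes Cirbp and Rbm3 were lower by 0.11 without passing. Without WT vehicle replicate 1 only Cdkn1a and Per2 passed on the slope among all these lists. Without the 3 libraries that stand apart 0 members did.

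Markers of cell types and layers are described next, and in bulk tissue fewer cells of a type and less RNA per cell cannot be told apart. The 12 myelin genes summed to between 236.8 and 2391 TPM in the high set with a median of 548.1, and to between 195.1 and 3630 TPM in the low set with a median of 1212. All 12 were lower in the high set, with a median log2 difference of -0.68, but 0 of them reached an unadjusted p-value of 0.05, and on the slope Aspa alone fell (-1.18, SE 0.335, adjusted p = 0.043). Aspa did not pass without WT vehicle replicate 1, nor without the 3 libraries that stand apart. Within groups the median of the list was -2.22 in WT IMN, 0.05 in WT vehicle, -0.60 in Brd1+/- vehicle and -0.03 in Brd1+/- IMN. Over all groups without the 3 libraries that stand apart it was -0.16, in a fit that kept WT IMN replicate 7.

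Upper cortical layer genes went the other way. The 7 genes summed to between 243.8 and 577.8 TPM in the high and between 101.8 and 583.7 TPM in the low set. Their median difference was 0.58, and Cux2 (1.15, SE 0.233, adjusted p = 0.00516), Otof (1.70, SE 0.366, adjusted p = 0.0079), Calb1 (0.85, SE 0.197, adjusted p = 0.0128) and Rasgrf2 (0.60, SE 0.162, adjusted p = 0.0336) rose on the slope. None of these passed without WT vehicle replicate 1 (0 called), and without the 3 libraries the median difference was 0.17, again with 0 called. Within groups the median was -0.10 in Brd1+/- vehicle and between 0.50 and 1.00 in the other 3. Deep layer genes had a median of -0.37 with 3 of 9 higher and 0 called. The 6 meninges genes were all higher in the high set, with a median of 0.61 and 0 called. Excitatory neuron genes had a median of -0.04, with Camk2a, a kinase of the synapse, rising by 0.31 (SE 0.0784; adjusted p = 0.0243), and interneuron genes one of -0.10, with Sst as the 1 gene that rose. In the astrocyte list S100b fell by 0.29 (SE 0.0842; adjusted p = 0.0449), and the astrocyte, microglia and endothelial lists had medians of 0.01, 0.09 and 0.07. Camk2a and S100b did not pass without WT vehicle replicate 1, and without the 3 libraries Camk2a, S100b and Sst did not. Erythrocyte genes had a median of 0.23, mural cell genes of 0.15, oligodendrocyte precursor genes of 0.21 and long nuclear RNAs of -0.02, and 0 of their members were called. Choroid plexus genes (-0.26) and striatal genes (-0.32) were highest in Brd1+/- vehicle replicate 6, and 0 of their members were called with or without the 3 libraries. Among these markers Folr1, Otx2 and Isl1 had a median of 0 TPM.

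**Figure D4:**
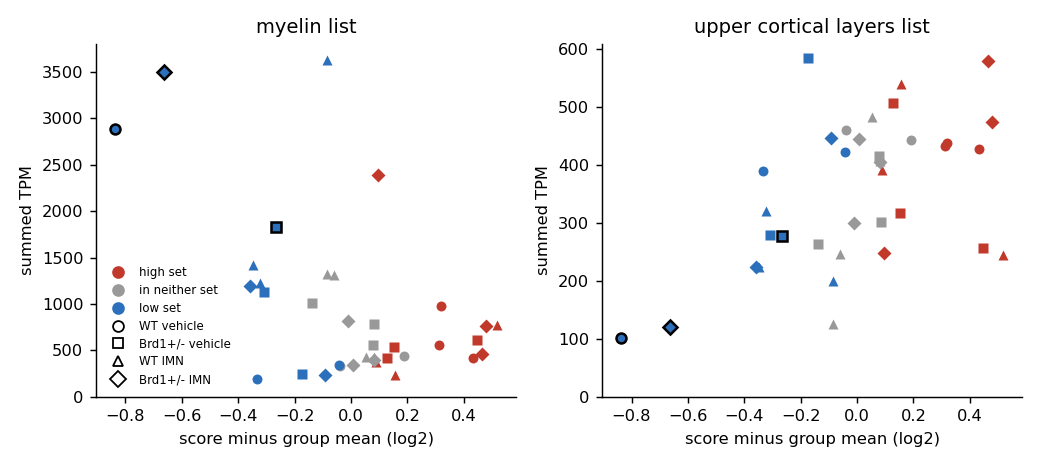
Summed TPM (vertical axes, from 0) of the 12 myelin genes (left) and the 7 upper cortical layer genes (right) in each of 36 libraries against the score minus the mean of its group (horizontal axes, log2), with colour for the set, shape for the group and a ring for the 3 libraries that stand apart. The 2 lowest scores belong to ringed libraries with myelin at 2887 and 3501 TPM and upper layer genes at 101.8 and 121.0 TPM.

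Far fewer genes passed on the slope once those libraries were left out or those markers entered the fit. Without the 3 libraries 8 of the 918 genes still passed (0.0313% of genes tested), all of which rose: Nr4a1, Sik1, Trib1, Dnajb5, Kdm6b, Furin, Stk40 and Irs2. With the scores of the myelin and upper layer lists as covariates 13 genes passed (0.0508%), again with a positive slope: Nr4a1, Trib1, Gpr3, Sik1, Egr2, Dnajb5, Stk40, Midn, Rasl11a, Kdm6b, Dusp1, Sst and Camk1g. Of these 13, 11 were among the 918, Gpr3 and Dusp1 being the exceptions. Nr4a1, Sik1, Trib1, Dnajb5, Stk40 and Kdm6b passed in all 3 fits.

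For the genes that passed in those fits the slopes were as follows. The slope of Nr4a1 was 0.60 over all libraries, 0.57 without the 3 (adjusted p = 6.71e-06) and 0.58 with the covariates (adjusted p = 2.78e-07). For Sik1 it was 0.47, 0.58 (adjusted p = 0.0004) and 0.57 (adjusted p = 0.000103), and for Trib1 0.43, 0.55 (adjusted p = 0.00359) and 0.62 (adjusted p = 3.47e-05). Kdm6b, a demethylase of lysine 27 on histone H3, stood at 0.31, 0.45 (adjusted p = 0.00884) and 0.42 (adjusted p = 0.0166). Egr2 went from 1.56 to 1.12 (adjusted p = 0.0676) and 0.83 (adjusted p = 0.00298). Genes that lost their call shrank further in part, such as Pcdh8, a protocadherin, from 0.79 to 0.32 and 0.10, and Bdnf from 0.66 to 0.42 and 0.37. Gpr3, a receptor that keeps cyclic AMP high without a ligand, went from 0.35 (adjusted p = 0.0615) to 0.70 with the covariates (adjusted p = 6.77e-05), and Sst, the somatostatin gene of a class of interneurons, from 0.24 (adjusted p = 0.0477) to 0.39 (adjusted p = 0.0248). The upper layer genes lost their slopes by construction with the covariates, to a median of -0.05, while the median of the inducible factors was 0.26 with the covariates and 0.30 without the 3 libraries, against 0.36 over all.

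**Figure D5:**
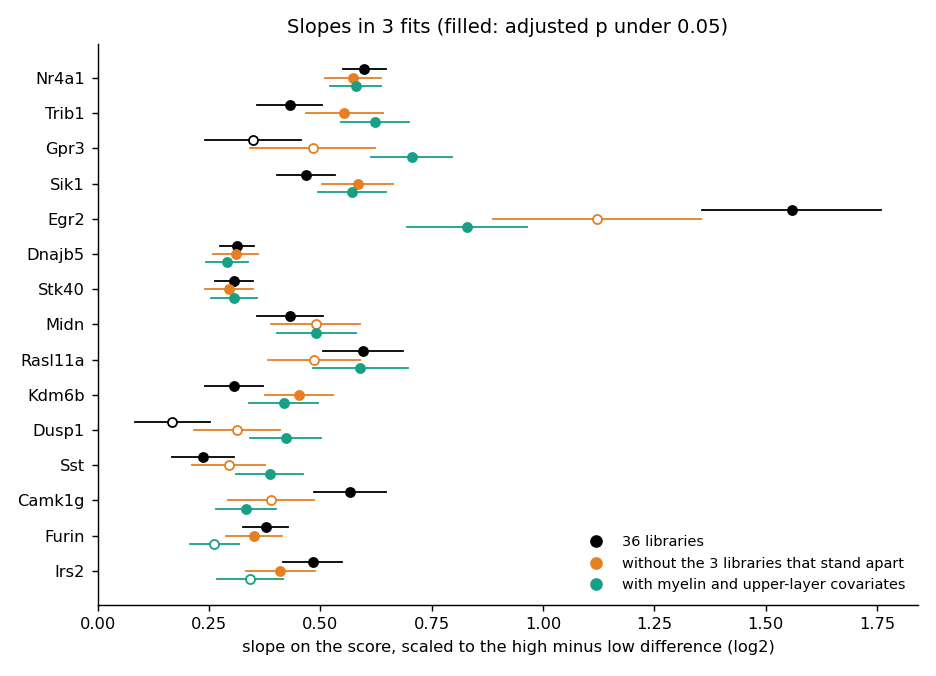
Slope on the score for 15 genes (horizontal axis, log2 change per high minus low difference in score; lines are ± 1 SE) in 3 fits, over 36 libraries, without the 3 libraries that stand apart, and with the myelin and upper layer scores as covariates; filled points passed an adjusted p of 0.05. Nr4a1, Trib1, Sik1, Dnajb5, Stk40 and Kdm6b are filled in all 3 fits.

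The 12 libraries in neither set gave a check in samples that the sets did not use, although their scores spread little (SD within groups 0.0912 against 0.307 over all libraries). No gene passed there (0%), and 1540 had an unadjusted p-value under 0.05 (6.02%). Of the 1132 genes higher in the high set at the unadjusted level, 896 had a positive slope outside the sets (79.2%), and of the 810 lower genes 542 had a negative slope (66.9%), where 55.0% of all genes tested had a positive slope. In the activity lists the slope was positive for 18 of 25 inducible factors, 18 of 28 feedback genes and 14 of 16 effectors. An unadjusted p-value under 0.05 was found there for 4 inducible factors, 0 feedback genes and 4 effectors. The slope was positive for 7 of 7 upper layer genes and 0 of 12 myelin genes too, and 2 genes of each of these marker lists had an unadjusted p-value under 0.05 there.

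Whether imipramine or genotype altered the difference between the sets was tested as an interaction. For imipramine 1 gene passed (0.00391%). Pagr1a (chr7:127015033-127017352, minus strand), which encodes a cofactor of histone methyltransferase complexes, had an interaction of -3.47 (SE 0.498; adjusted p = 0.0169). In the vehicle groups the 6 high libraries lay between 9.69 and 16.7 TPM and the 6 low ones between 0.842 and 5.54 TPM, and in the IMN groups the 6 high libraries lay at or below 1.04 TPM and the 6 low ones between 0.0165 and 2.14 TPM. Levels of 9.80, 12.4 and 13.1 TPM also occurred in 3 of the libraries in neither set, the latter pair in IMN mice. The gene overlaps its near-identical copy Pagr1b, listed at 0 in the median library, and Gm42742 on the same strand, so its values are uncertain, and the call was lost with a pseudocount of 0.1. For genotype 0 genes passed (0%), with 754 at an unadjusted p-value under 0.05, and the smallest p-values belonged to D3Ertd751e (1.85, SE 0.35, adjusted p = 0.769), Gm25296 and Ccdc57. In the activity lists 0 of 69 genes passed either interaction, and the median interactions were -0.02 in both. An unadjusted p-value under 0.05 was found for 2 of the 69 for imipramine and 0 for genotype. Over all 25567 genes tested it was found for 858 and 754. Over the vehicle libraries alone 62 of the 69 slopes were positive (47.2% of all genes) and over the IMN libraries alone 61 (54.9%).

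Brd1 itself did not pass the test. It lay between 15.2 and 31.9 TPM in the high and between 14.3 and 28.3 TPM in the low set, with a log2 difference of 0.11 (SE 0.0779; adjusted p = 0.74). Measures of the libraries did not differ past the threshold after adjustment either, in exact permutation tests within groups over 160000 arrangements, two-sided. The share of mitochondrial transcripts was 25.1% ± 2.28 (SD, n = 12) in the high and 25.4% ± 1.75 (SD, n = 12) in the low set, with an exact p of 0.78. Genes above 0 numbered 70.2 more on average in the high set (exact p = 0.385), and the 50 most abundant genes held 39.7% ± 3.22 of the TPM in the high set and 40.3% ± 2.33 in the low set (exact p = 0.635). The adjusted value over the 3 measures was 0.78 for each. With sets of 2 libraries per group the mitochondrial share differed by -1.39 percentage points, high minus low (high 24.02%, low 25.4%, exact p = 0.0494) and the share of the 50 most abundant genes by -2.15 points (high 38.2%, low 40.4%, exact p = 0.0463), with an adjusted p of 0.0741 for both. The parts that myelin, upper layer genes and the libraries that stand apart play in the other differences were not tested beyond the fits given.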

How the data were processed

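RNA of 36 aCC punches was sequenced on BGISEQ-500 with single-end reads. Per the methods and the labels, the authors aligned reads with HISAT2 2.1.0 to GRCm38 and quantified Ensembl genes with StringTie 1.3.4, after read filtering (FastQC and Trimmomatic are named in the submitters' processing notes). The deposited values are TPM, made by the authors, for 52636 genes, with column totals between 999727.1 and 999889.0 and no scaling between libraries. Strand use is not given in the sources used here, and columns left unmatched to a sample numbered 0.

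TPM were transformed as log2(TPM + 0.5), on which changes of weakly expressed genes come out too small. A gene was kept when 8 or more libraries reached 0.1 TPM (25572). The 5 score genes were left out of the fits, except that each was fitted in the sets chosen without it. Tests were two-sided in limma 3.58.1 (R 4.3.3; empirical Bayes with an intensity trend), with group as a block and Benjamini-Hochberg adjustment over 25567 genes. The slope fit used the score of each library and was scaled to the difference between the sets. Library measures were compared by exact permutation within groups. Simulated data with known changes served to test the limma code. Python 3.11.15, numpy 2.4.6, pandas 2.3.3 and matplotlib 3.10.9 were used.

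Libraries were grouped by their labels, and the sets were formed from measured expression within those groups. Members and gene lists were chosen with earlier results of these data known. Genes were named by rule: the score genes and Brd1, the 12 with the smallest p-values per direction among called genes or 3 where none was called, list members with the smallest p-values, and the called or 3 top genes of each interaction. The genes that passed with covariates or without 3 libraries, the covariate for upper layers and the other fits of the slope were added after the values had been seen. Some genes within these rules are not reported here. Labels do not say whether mice of a group shared a litter or cage, and p-values measure the spread between these mice.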

Additional observations from a re-analysis of the deposited data

Results flagged for a closer look

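In groups of 8 to 10 libraries 180 sets of values were examined for a library far from the others, and 33 were found. Chance flags about 1 in 20, but many of these sets are genes named for a small p-value on the slope. Those slopes rest in part on the same libraries and the genes vary together, so the 33 cannot be compared with that rate. Most of the 33 were in the low set, and their causes were not tested.

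WT vehicle replicate 1 accounted for 14. Its upper cortical layer score was 3.34 (mean log2 scale) against 5.30 to 5.57 in the other WT vehicle libraries. It was below them for Junb (62.8 TPM), Furin (16.6 TPM), Egr4 (24.9 TPM) and Irs2 (17.7 TPM). It was above them for Rhobtb3 (9.09 TPM), Rassf7 (1.74 TPM), Fundc2 (33.5 TPM), Fam234a (12.4 TPM), Eif5a2 (30.2 TPM), Trhr2 (10.3 TPM), Edil3 (62.5 TPM), Akr1c18 (5.30 TPM) and Mtap (7.41 TPM).

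Brd1+/- IMN replicate 6 accounted for 8, with an upper layer score of 3.27 against at least 4.496 in its group. It was the highest of its group for Zfp429 (2.88 TPM), Rhobtb3 (9.84 TPM), Rassf7 (1.23 TPM), Fam234a (10.6 TPM), Edil3 (78.7 TPM), Akr1c18 (3.31 TPM) and Mtap (7.36 TPM). Brd1+/- vehicle replicate 6 had a striatal neuron score of 5.80 against at most 2.75 in its group, and Brd1+/- vehicle replicate 5 was apart for Furin (17.6 TPM, below) and Eif5a2 (27.7 TPM, above).

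In the high set, WT IMN replicate 6 was above its group for Fos (61.8 TPM), Arc (300.2 TPM), Trib1 (26.6 TPM), Midn (139.7 TPM) and Kdm6b (25.9 TPM), and Brd1+/- IMN replicate 7 for Kdm6b (26.1 TPM). The others were Mir129-1 in WT IMN replicate 3 (0.950 TPM) and Rassf7 in WT IMN replicate 2 (0.778 TPM).

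The difference between the sets in Pagr1a was not the same in vehicle and IMN libraries, with an interaction of -3.47 on the log2 scale (limma adjusted p = 0.0169).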

How the results depend on the processing

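The comparison of the sets called 0 genes, and 1942 at an unadjusted p-value under 0.05. It called 2 with sets of 2 or of 4 libraries per group, 3 with scores built from z-scores, 1 without Arc or Egr1 in the score, 3 without Npas4, and 0 to 3 when each library was left out: 1 without WT vehicle replicate 1 or replicate 8 or Brd1+/- IMN replicate 5, 2 without Brd1+/- vehicle replicate 2 and 3 without Brd1+/- IMN replicate 3. The slope over every library called 918. Leaving out each library gave 75 to 1385: 75 without WT vehicle replicate 1, 156 without Brd1+/- IMN replicate 6, 562 without Brd1+/- IMN replicate 7 and 1385 without WT vehicle replicate 4. Without Brd1+/- vehicle 6 and WT vehicle 1 it called 88, and 8 without these and Brd1+/- IMN 6. Covariates left 55 (myelin), 14 (upper layers) and 13 (both). Fewer libraries were fitted in vehicle alone (1), IMN alone (85), WT alone (4) and Brd1+/- alone (2). Other scalings, pseudocounts and filters gave 882 to 1072. With the replicate number as a block the sets gave 0 calls and the slope 121. Labels share numbers across groups, but these did not pair the samples: deviations of same-numbered libraries correlated at a median r of -0.018, 8 of 51 pairs were over 0.1, and 1 of 36 libraries correlated best with its own number.

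The myelin median of -0.68 ran from -0.93 to -0.49 when single libraries were left out, was -1.23 with sets of 2, -0.19 without the WT IMN group, and reversed to 0.19 with the upper layer covariate. The imipramine interaction called 0 genes with a pseudocount of 0.1. The difference in mitochondrial share, -0.245 percentage points, was -1.39 with sets of 2 (adjusted exact p = 0.0741) and reversed to 0.0376 with sets of 4. The causes were not tested. Of 99 genes followed through 52 alternatives, most of them followed because of a small p-value, 4 turned in direction in some. These were Jun, Nr4a2, Gm25296 (-0.077 without the WT vehicle group) and Mbp (0.055 with the upper layer covariate). The log2 difference of Jun, -0.003 between the sets, was 0.133 with sets of 2, 0 without Brd1+/- vehicle 6 and WT vehicle 1, 0.015 with array weights, 0.059, 0.068 and 0.014 without Arc, Egr1 or Fos in the score, 0.024 on the slope, 0.046 with the striatal covariate, 0.05 and 0.017 without the Brd1+/- IMN or vehicle group, 0.036 with z-scores, and -0.074 to 0.065 with single libraries left out. The log2 difference of Nr4a2, 0.036, was -0.099 and -0.03 with sets of 2 and 4, -0.045 with the replicate block, -0.019 without Npas4 in the score, -0.102 on the slope, -0.062 and -0.12 without the Brd1+/- vehicle or WT vehicle group, -0.02 with z-scores, and -0.039 to 0.129 with single libraries left out. TPM give no depth, so low genes such as Mir129-1 and Rassf7 carry an unknown counting error.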
